A study of Mus musculus with 4 samples.

Results

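The collagen genes of the mouse were examined in RNA-seq of the prefrontal cortex (PFC) after knockdown of *Ash1L*, which encodes a histone methyltransferase. They were taken by symbol, as every gene named *Col* followed by a number, the letter a and a number, and 44 of the 23420 symbols in the count tables fitted this pattern. All 44 passed the filter on low counts and were tested among 16232 genes. The groups compared were 2 samples labelled *Ash1L* shRNA AAV9 and 2 control samples labelled GFP AAV9, all from C57BL6/J mice that the description of the series gives as 6 to 8 weeks old. The paper calls the control virus a scrambled shRNA AAV, gives 5 weeks as the age at injection and states that 3 mice were pooled for each sample, but the series is described as 3 knockdown and 2 control mice. Each virus carried GFP and was injected into medial PFC on both sides, the knockdown rested on 1 hairpin driven by a U6 promoter that is not specific to a cell type, and the punches taken by their fluorescence hold infected and uninfected cells. Neuronal markers were present in every sample, with a summed level of 4850 to 7065 CPM (counts scaled to library size, by TMM), as the label PFC implies.

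Collagens are secreted or membrane proteins in which 3 chains wind into a triple helix. The fibrillar types bear tensile load, type IV forms the sheet of the basement membrane around blood vessels, type VI forms beaded microfilaments, and the fibril-associated types decorate fibrils. In brain, most collagen lies in the meninges and the vascular basement membrane, where fibroblasts, pericytes and endothelial cells make it, while some types are made by neurons.

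Collagen genes were more often higher than lower after *Ash1L* knockdown. The cut-offs of the study, a nominal P under 0.05 and a difference of 1.2-fold or more, were applied there to DESeq2. With the same cut-offs on edgeR's quasi-likelihood test, 11 of the 44 were UP, beside 8.61% of all genes tested, and 2 were DOWN, beside 8.28%. The other 31 were not called. The UP genes encode basement membrane chains (*Col4a1*, *Col4a2*), a vascular and epithelial basement membrane collagen (*Col18a1*), fibrillar chains (*Col3a1*, *Col5a3*, *Col27a1*), type VI chains (*Col6a4*, *Col6a5*) and fibril-associated chains (*Col9a1*, *Col16a1*, *Col22a1*), and the DOWN genes encode the fibril-associated chains of types XII and XIX. *Col6a5* passed the filter on low counts only with the knockdown samples, where it is high, so its call is no support. The median log2 fold change over the 44 genes was 0.43, against -0.003 over all genes tested, with 34 genes above 0 and 10 below. None of the 44 passed an adjusted p of 0.05 in edgeR's quasi-likelihood test (Benjamini-Hochberg, over all genes), a threshold that 0.00616% of all genes tested passed, and 13 had an unadjusted P under 0.05. The adjusted p of the 44 genes ran from 0.240 to 0.978. Fewer collagen genes were UP without control sample 1 or without control sample 2, and so were fewer of all genes tested. The median log2 fold change of the collagen genes ran from 0.15 to 0.61 with a sample left out, and was 0.15 without *Ash1L* shRNA sample 2. By DESeq2 at the same cut-offs, 15 collagen genes were UP and 2 DOWN, beside 1225 and 1264 of 16232 genes. DESeq2 and edgeR's likelihood ratio test each put 5 collagen genes past the adjusted threshold, beside 421 and 479 of the 16232 genes tested. These P values measure only the spread between the pooled samples at hand, and an exact permutation test of 2 against 2 samples cannot give a p below 0.333.

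The summed level of all collagen genes was 640 and 759 CPM in control samples 1 and 2, and 777 and 1118 CPM in *Ash1L* shRNA samples 1 and 2. Both knockdown samples lay above both controls, but sample 1 exceeded control sample 2 by little. The group means were 700 ± 84.6 and 947 ± 241 CPM (SD, n = 2 each), a 1.35-fold difference. Among single genes, 20 were higher in both knockdown samples than in both controls, beside 26.5% of all genes tested, 6 were lower in both, beside 26.8%, and 18 overlapped. In bulk tissue, a change in the number of cells that make a collagen and a change in RNA per cell cannot be told apart.

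**Figure D1:**
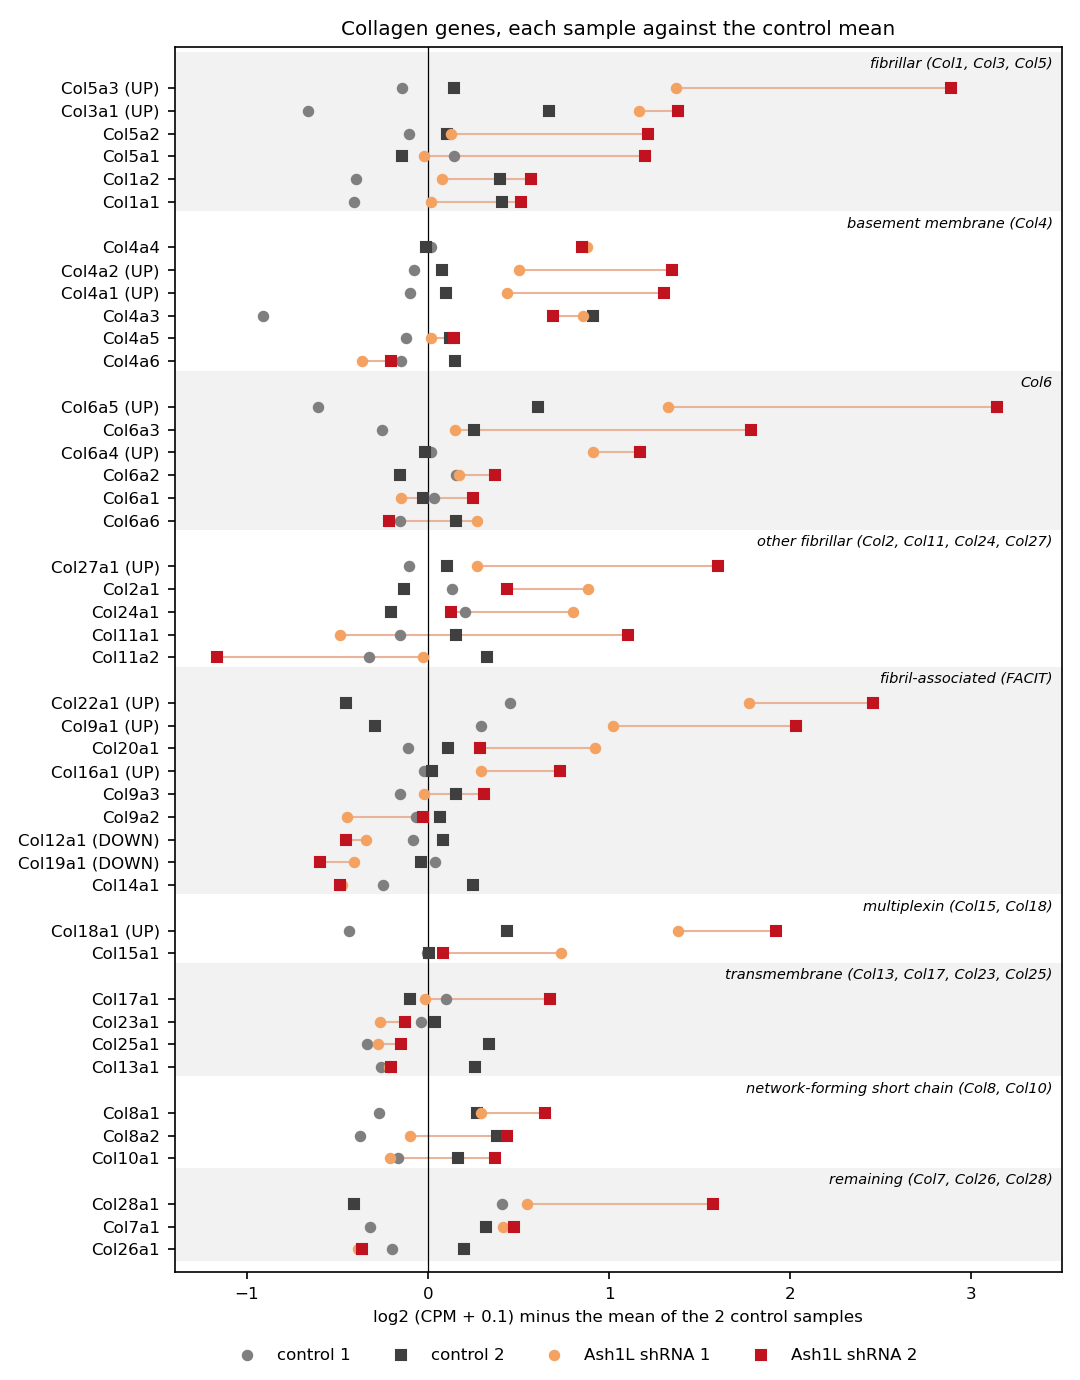
Level of each of the 44 collagen genes in the 4 samples, as log2 (CPM + 0.1) minus the mean of the 2 control samples, by structural group (rows). Points are samples, grey for control and coloured for *Ash1L* shRNA, lines join the 2 *Ash1L* shRNA samples, and the 11 UP and 2 DOWN genes are marked; for each of the 13, *Ash1L* shRNA sample 2 is the one farther from the control mean.

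The targeted gene was lower in both knockdown samples. *Ash1l* measured 245 and 290 CPM in the controls and 216 and 138 CPM in *Ash1L* shRNA samples 1 and 2 (log2 fold change -0.60, SE 0.22, adjusted p = 0.275 in edgeR's test, DOWN). It was not called without control sample 1 (-0.71), control sample 2 (-0.48) or *Ash1L* shRNA sample 2 (-0.31). The sample with less *Ash1l* was the sample with the higher collagen total, which was not tested with 2 samples.

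Basement membrane collagen was led by its 2 major chains, which were higher in both knockdown samples. *Col4a1*, encoding the alpha1 chain of the network found around every vessel, measured 81.1 and 92.8 CPM in the controls and 117 and 214 CPM in the knockdown samples. *Col4a2*, encoding the alpha2 chain that joins 2 alpha1 chains in the same helix, measured 56.7 and 63.3 CPM in the controls and 84.9 and 153 CPM in the knockdown samples. For both genes the controls lay close together, sample 1 lay moderately above them and sample 2 far above. *Col4a1* was 1.90-fold higher (log2 fold change 0.93, SE 0.28) and *Col4a2* 1.97-fold higher (0.98, SE 0.27), each with an adjusted p of 0.260 in edgeR's test. Both calls needed both controls. Without control sample 1 the log2 fold changes were 0.85 and 0.92, without control sample 2 they were 1.03 and 1.06, and neither gene was called. Without knockdown sample 2 they were 0.43 and 0.50, both UP.

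The genes for these chains lie head to head on chromosome 8 in GRCm38, *Col4a1* at chr8:11198423-11312826 on the minus strand and *Col4a2* at chr8:11312805-11449287 on the plus strand, and share 22 bases at their starts. Their levels kept nearly 1 ratio in all samples. Per kilobase of exon, *Col4a1* stood at 1.27 and 1.30 times *Col4a2* in the controls and at 1.22 and 1.25 times in the knockdown samples. Together these chains took 21.5% and 20.6% of all collagen CPM in the controls, and 26.0% and 32.8% in the knockdown samples.

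None of the 4 minor type IV chains was called. *Col4a5* measured 8.93 and 10.6 CPM in the controls and 9.82 and 10.8 CPM in the knockdown samples, overlapping (log2 fold change 0.07, SE 0.19). *Col4a6*, its head-to-head neighbour on chromosome X, was below both controls, with 5.67 and 6.98 against 4.86 and 5.45 CPM, without being called (-0.31, SE 0.25). These 2 chains share a helix in the basement membranes of smooth muscle and other tissues. *Col4a3* and *Col4a4*, the divergent pair best known from kidney and inner ear, were near the floor. *Col4a4* measured 0.50 and 0.48 CPM in the controls against 0.99 and 0.96 CPM (log2 fold change 0.99, SE 0.47, adjusted p = 0.334), a difference as large as that of *Col4a1* at very few reads, and *Col4a3* ranged from 0.28 to 1.25 CPM within the controls alone. In all, 2 of the 6 type IV genes were UP and none was DOWN, and their median log2 fold change was 0.68.

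Of the 6 fibrillar genes of types I, III and V, 2 were UP and none fell past the test, and the median log2 fold change was 0.74. *Col3a1*, whose homotrimer is abundant in vessel walls and meninges, measured 11.97 and 30.3 CPM in the controls and 42.8 and 49.7 CPM in the knockdown samples. The knockdown samples were close to each other and the controls 2.53-fold apart. *Col3a1* was 2.15-fold higher (log2 fold change 1.10, SE 0.42, adjusted p = 0.285 in edgeR's test). Its size rested on control sample 1, without which the log2 fold change was 0.62, while without control sample 2 it was 1.94. The call was lost without knockdown sample 1 (1.19), without knockdown sample 2 (0.98) and with no filter on low counts (1.10).

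Type I collagen, the main load-bearing fibril of connective tissue, was not called. *Col1a1* measured 10.1 and 18.0 CPM in the controls and 13.7 and 19.3 CPM in the knockdown samples, and *Col1a2* measured 27.0 and 46.9 CPM in the controls and 37.5 and 52.8 CPM. The log2 fold changes were 0.21 (SE 0.31) and 0.28 (SE 0.29), and *Col1a2* was UP only without control sample 2 (0.74). In both genes knockdown sample 1 lay between the controls, and the controls differed from each other more than the group means did. Both genes were higher in control sample 2 than in control sample 1, by 1.77-fold and 1.74-fold. Per kilobase, *Col1a1* stood at 0.711, 0.725, 0.689 and 0.692 times *Col1a2* in control samples 1 and 2 and knockdown samples 1 and 2, so these partner chains varied together across all 4 samples. *Col3a1* did not keep such a ratio to *Col1a2*, with 0.562 and 0.817 in the controls and 1.44 and 1.19 in the knockdown samples.

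Type V collagen starts and limits the width of type I fibrils. *Col5a3*, encoding its alpha3 chain, was the fibrillar gene with the largest difference. It measured 2.20 and 2.71 CPM in the controls and 6.46 and 18.7 CPM in the knockdown samples, so that the controls were close together and sample 2 stood far above sample 1. It was 5.02-fold higher (log2 fold change 2.33, SE 0.53, adjusted p = 0.253 in edgeR's test), and without knockdown sample 2 the log2 fold change was 1.38, still UP. *Col5a1* and *Col5a2*, for the chains of the common heterotrimer, were not called in the quasi-likelihood test. *Col5a1* measured 30.0 and 24.5 CPM in the controls and 26.7 and 62.4 CPM in the knockdown samples (0.71, SE 0.40), and *Col5a2* measured 10.8 and 12.5 against 12.7 and 27.1 CPM (0.76, SE 0.36). For both, sample 1 was at the control level and only sample 2 stood apart. *Col5a2* was UP with the replicate block (0.69), by DESeq2 and by the likelihood ratio test, and *Col5a1* by DESeq2.

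Type VI collagen gave a split picture, with 2 of 6 genes UP, none DOWN and a median of 0.67 on the log2 scale. The chains of the common microfilament, *Col6a1*, *Col6a2* and *Col6a3*, were not called in the quasi-likelihood test. *Col6a1* measured 54.0 and 51.7 CPM in the controls and 47.7 and 62.8 CPM in the knockdown samples, on either side of them (0.06, SE 0.16). *Col6a2* measured 14.7 and 11.9 against 14.9 and 17.1 CPM (0.27, SE 0.19). *Col6a3*, whose long chain completes the trimer, measured 5.67 and 8.12 CPM in the controls and 7.52 and 23.6 CPM in the knockdown samples (2.22-fold, SE of the log2 fold change 0.55, adjusted p = 0.350), with only sample 2 above the controls. *Col6a3* was UP with the replicate block (1.01), by DESeq2 and by the likelihood ratio test.

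The genes for the alternative chains of type VI, *Col6a4*, *Col6a5* and *Col6a6*, lie in a row on chromosome 9. *Col6a4* (chr9:105989454-106096783) measured 2.98 and 2.91 CPM in the controls and 5.62 and 6.75 CPM in the knockdown samples. Both groups were tight and well apart, and the gene was 2.10-fold higher (log2 fold change 1.07, SE 0.27, adjusted p = 0.253 in edgeR's test). *Col6a5* had few reads, 3 and 22 counts in the controls and 30 and 85 in the knockdown samples, which is 0.21, 0.63, 1.10 and 4.10 CPM. Its log2 fold change of 2.45 (SE 0.79, adjusted p = 0.260) depended on single samples, with 3.56 without control sample 2, and with no call at 2.04 without control sample 1 and at 1.22 without knockdown sample 2. The controls alone would not have carried *Col6a5* past the filter on low counts, so its call is no support. *Col6a6* overlapped, with 1.06 and 1.34 against 1.46 and 1.01 CPM (0.03, SE 0.43).

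**Figure D2:**
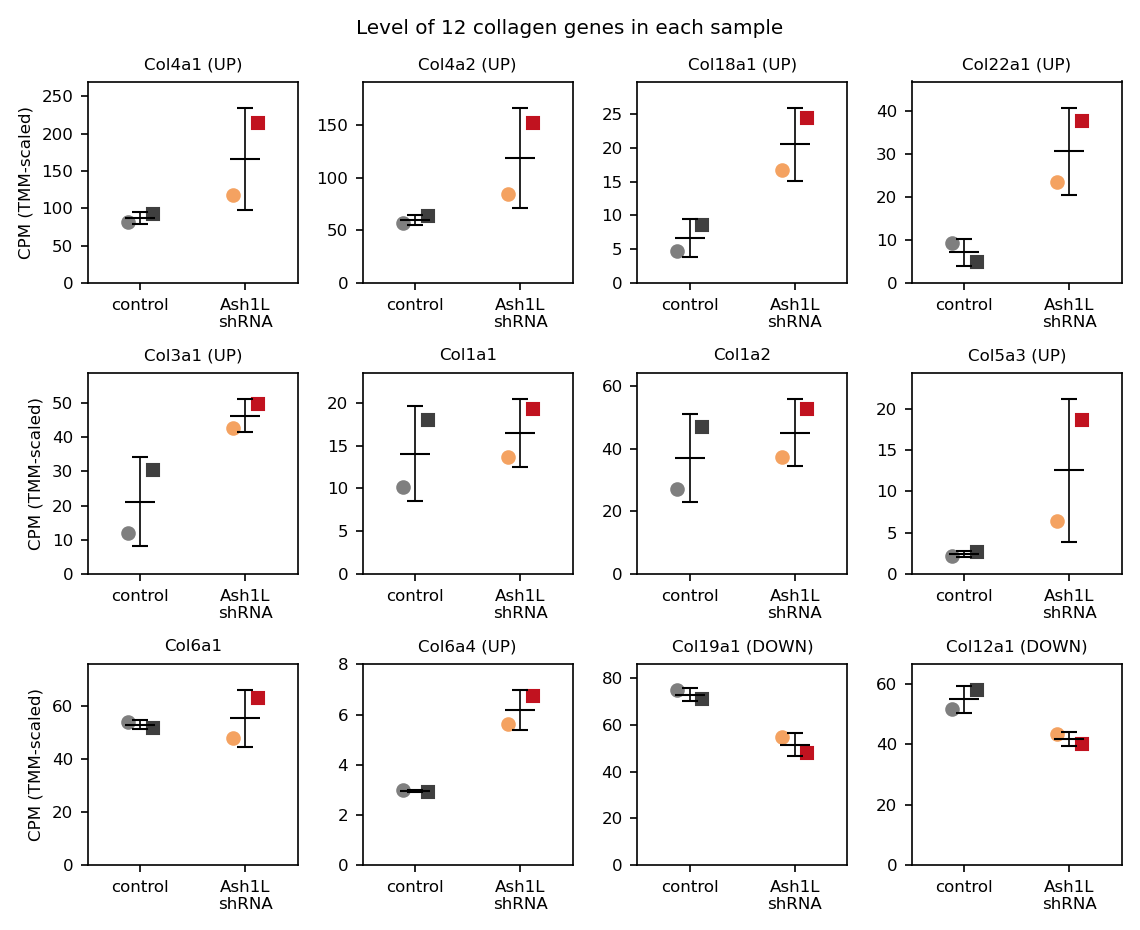
TMM-scaled CPM of 12 collagen genes in each sample, each panel with its own linear axis from 0. Circles are sample 1 and squares sample 2 of a group, and bars show the mean and SD of the 2 samples; *Col4a1*, *Col4a2*, *Col18a1*, *Col22a1*, *Col3a1*, *Col5a3* and *Col6a4* are UP, *Col19a1* and *Col12a1* DOWN, and *Col1a1*, *Col1a2* and *Col6a1* overlap between the groups.

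The remaining fibrillar genes gave 1 UP gene of 5, with a median log2 fold change of 0.52. *Col27a1*, a fibrillar collagen known from cartilage, measured 6.38 and 7.41 CPM in the controls and 8.32 and 21.0 CPM in the knockdown samples. The call was at the edge of the threshold (1.08, SE 0.44, adjusted p = 0.295) and was lost without control sample 1 (0.99), control sample 2 (1.19) or knockdown sample 2 (0.26), and also with no filter on low counts, with at least 10 counts in every sample and with the crossed replicate block. The type XI genes moved apart in knockdown sample 2. *Col11a1* measured 8.43 and 10.5 CPM in the controls against 6.68 and 20.3 CPM (0.50, SE 0.51), and *Col11a2* 14.2 and 22.4 CPM against 17.5 and 7.91 CPM (-0.53, SE 0.41), neither of them called.

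Fibril-associated collagens held calls in both directions, with 3 UP and 2 DOWN among 9 genes whose median log2 fold change was 0.14. *Col22a1*, best known from tissue junctions such as that of muscle and tendon, had the lowest P of all collagen genes. It measured 9.35 and 4.96 CPM in the controls and 23.5 and 37.9 CPM in the knockdown samples, both well above both controls. The gene (chr15:71795795-72034227) was 4.40-fold higher (log2 fold change 2.14, SE 0.37, adjusted p = 0.240 in edgeR's test). The log2 fold change was 1.77 without knockdown sample 2 and 1.71 without control sample 2, and the gene was UP in both cases.

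*Col9a1*, for a chain of the type IX trimer of cartilage and eye, measured 1.42 and 0.91 CPM in the controls and 2.41 and 4.97 CPM in the knockdown samples. The groups did not overlap at this low level (1.70, SE 0.49, adjusted p = 0.260), and without control sample 2 the log2 fold change was 1.36, no longer called, while without knockdown sample 2 it was 1.10, still UP. Its partner chain *Col9a3* did not move with it, with 10.7 and 13.3 CPM in the controls and 11.8 and 14.8 CPM in the knockdown samples (0.14, SE 0.21). *Col16a1*, which is associated with both fibrils and basement membrane zones, measured 19.98 and 20.6 CPM in tight controls and 24.8 and 33.7 CPM in the knockdown samples. The change was small (1.44-fold, log2 fold change 0.53, SE 0.18, adjusted p = 0.262), and the call was lost without control sample 1 (0.52), control sample 2 (0.54) or knockdown sample 2 (0.29). *Col20a1* measured 6.16 and 7.21 CPM in the controls against 12.7 and 8.15 CPM, higher in sample 1 than in sample 2, without being called in the quasi-likelihood test (0.64, SE 0.27, adjusted p = 0.302). It was UP by the likelihood ratio test, with library-size scaling, with no filter on low counts and with the crossed replicate block.

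Both DOWN genes were among the collagens of higher level in the controls. *Col19a1*, which in cortex is known to be made by interneurons and to act in synapse formation, measured 75.1 and 71.0 CPM in the controls and 55.1 and 48.2 CPM in the knockdown samples. Both groups were tight, and the level was 29.3% lower (log2 fold change -0.50, SE 0.12, adjusted p = 0.253 in edgeR's test). *Col12a1*, a fibril-associated collagen of connective tissue under load, measured 51.8 and 58.0 CPM in the controls and 43.3 and 40.0 CPM in the knockdown samples, 24.2% lower (-0.40, SE 0.13, adjusted p = 0.260). *Col19a1* was not called without control sample 1 (-0.45), nor *Col12a1* without control sample 2 (-0.32). *Col19a1* and *Col9a1* are neighbours on chromosome 1, 9205 bases apart and on opposite strands, and were called in opposite directions.

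The multiplexins carry basement membrane proteoglycan chains. *Col18a1*, the source of the fragment endostatin, measured 4.68 and 8.64 CPM in the controls and 16.7 and 24.3 CPM in the knockdown samples. All 4 values were ordered by group with a wide gap, and the gene (chr10:77052178-77166548) was higher (log2 fold change 1.59, SE 0.33, adjusted p = 0.250 in edgeR's test). It was UP whichever sample was left out, with log2 fold changes of 1.25 without control sample 1 and 2.12 without control sample 2 as the extremes. The other multiplexin gene was not called.

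None of the 4 transmembrane collagen genes, the 3 short-chain genes and the 3 genes of types VII, XXVI and XXVIII was called in the quasi-likelihood test. *Col28a1* (1.17, SE 0.49) was UP by DESeq2 and by the likelihood ratio test. It was also UP with library-size scaling, with no filter on low counts and with the crossed replicate block. Among the transmembrane genes, *Col25a1*, a neuronal collagen, measured 56.9 and 90.6 CPM in the controls and 59.3 and 64.7 CPM in the knockdown samples, both inside the range of the controls (-0.25, SE 0.22). *Col23a1* measured 13.1 and 13.9 against 11.2 and 12.3 CPM, just below both controls (-0.20, SE 0.17). The medians of the 3 groups were -0.23, 0.10 and 0.39.

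The order of the collagens by level differed between the groups. Per kilobase of exon, the genes of highest mean level in the controls were *Col6a1* with 12.1 CPM per kilobase, *Col4a1* with 11.7, *Col19a1* with 10.6 and *Col4a2* with 9.07. In the knockdown samples the means were 22.2 for *Col4a1*, 17.9 for *Col4a2*, 12.6 for *Col6a1* and 7.49 for *Col19a1*. The neuronal collagens *Col19a1* and *Col25a1* together made up 20.6% and 21.3% of collagen CPM in the controls, and 14.7% and 10.1% in the knockdown samples. A share falls when other genes rise, and the CPM of *Col25a1* itself overlapped between the groups. Types I and III together held 7.67% and 12.5% in the controls against 12.1% and 10.9%. Among the 44 genes ordered by mean level per kilobase, *Col22a1* stood 23rd in the controls and 11th in the knockdown samples (0.778 and 3.33 CPM per kilobase), *Col18a1* 20th and 12th (0.948 and 2.92), and *Col5a3* 36th and 20th (0.360 and 1.85).

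The 2 knockdown samples were then set against the controls separately. *Ash1L* shRNA sample 2 stood farther out for all 11 UP genes and both DOWN genes, as it did for 80.8% of all UP genes and 90% of all DOWN genes (1397 and 1344 genes). Against the control mean, the median log2 difference over the collagen genes was 0.16 in sample 1 and 0.49 in sample 2. Over all genes tested it was -0.0006 and 0.003. With sample 1 as the only knockdown sample, whose spread is then assumed to be that of the controls, 10 collagen genes were UP and 2 DOWN, beside 6.25% and 5.05% of all genes in that fit, and none passed an adjusted p of 0.05 while 12 were called at an unadjusted P under 0.05. With sample 2 alone, 15 were UP and 3 DOWN, beside 14.4% and 16.5% of all genes, and 17 passed the adjusted threshold. These fits share their controls. *Col4a1*, *Col4a2*, *Col5a3*, *Col6a4*, *Col9a1*, *Col18a1* and *Col22a1* were UP and *Col12a1* and *Col19a1* DOWN in each of them. *Col15a1*, *Col20a1* and *Col24a1* were UP with sample 1 alone and not with sample 2 alone. *Col5a1*, *Col5a2*, *Col6a3*, *Col6a5*, *Col11a1*, *Col16a1*, *Col27a1* and *Col28a1* were UP, and *Col11a2* DOWN, with sample 2 alone and not with sample 1 alone.

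**Figure D3:**
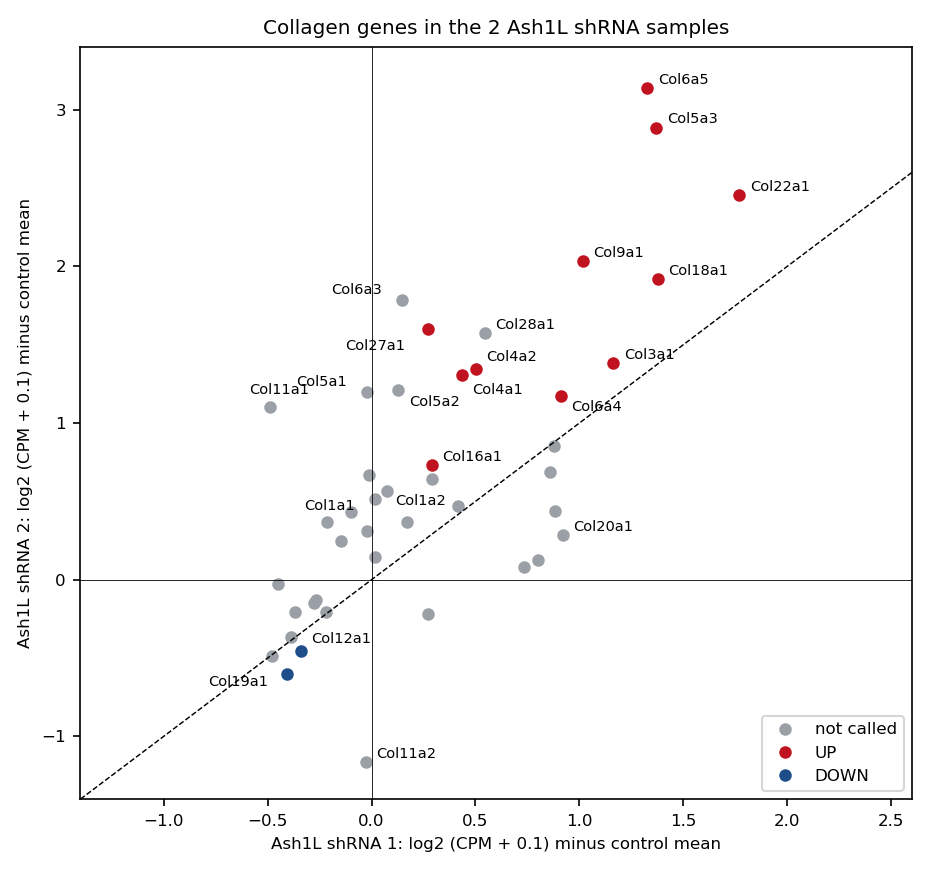
Each of the 44 collagen genes by its log2 (CPM + 0.1) minus the control mean in *Ash1L* shRNA sample 1 (horizontal axis) and sample 2 (vertical axis), with the dashed line marking equal values. UP genes are red, DOWN genes blue and genes not called grey; all 11 UP genes lie above the dashed line and both DOWN genes below it, and both axes subtract the same control mean.

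Sequence before the start of the UP genes was read from RefSeq in GRCm38.p6 for the 250 bases in front of each annotated start, where 35 of the 44 genes had an entry and gave 38 windows. *Col3a1* and *Col5a3* are shown because both are UP fibrillar genes and their windows differ in makeup. They are written 5′ to 3′ on the strand of the gene, with capitals for the letters of the motif TATAAA, the motif CCAAT, whose reverse complement is ATTGG, and the motif GGGCGG, whose reverse complement is CCGCCC, all searched on both strands and not overlapping one another here. The *Col3a1* window is chr1:45311288-45311537 on the plus strand with 35.2% GC, and the *Col5a3* window is chr9:20815068-20815317 on the minus strand with 62.8% GC.
Col3a1: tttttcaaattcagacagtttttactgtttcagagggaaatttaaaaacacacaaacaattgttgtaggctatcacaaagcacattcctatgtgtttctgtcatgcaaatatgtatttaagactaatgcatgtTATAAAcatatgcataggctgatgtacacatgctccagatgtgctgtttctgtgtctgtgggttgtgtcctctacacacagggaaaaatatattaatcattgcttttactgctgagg
Col5a3: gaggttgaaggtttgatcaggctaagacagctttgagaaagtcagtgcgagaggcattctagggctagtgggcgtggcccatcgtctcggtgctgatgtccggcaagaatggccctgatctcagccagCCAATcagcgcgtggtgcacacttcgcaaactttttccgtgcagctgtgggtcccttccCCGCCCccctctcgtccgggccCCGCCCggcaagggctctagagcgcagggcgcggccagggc
The *Col3a1* window holds TATAAA from 117 bases before the start and neither other motif. The *Col5a3* window holds CCAAT from 122 bases before the start and GGGCGG from 63 and 41 bases before it, without TATAAA. Over the collagen windows TATAAA was found in 13.2%, against 12.4% of all 32851 windows, the motif CCAAT in 34.2% against 33.8%, and GGGCGG in 57.9% against 32.7%. In the 12 windows of UP genes these motifs were found in 1, 7 and 7. Among the UP genes, *Col9a1* and *Col18a1* each gave more than 1 window, and *Col22a1* gave none. A match of letters is no evidence of binding.

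Proteins that build, process and hold collagen were taken as 7 lists of 98 genes, of which 95 were tested. UP genes numbered 21, beside the 8.61% of all genes tested, and 1 was DOWN, while 73 were not called. The 21 include *Mmp3* and *Mmp12*, which passed the filter on low counts only through the knockdown samples. With a sample left out, the numbers of UP and DOWN genes depended on which sample it was, here and over all genes tested. None passed the adjusted threshold in edgeR's quasi-likelihood test. Apart from *Mmp3* and *Mmp12*, the adjusted p of the genes named here ran from 0.250 up in that test.

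Among 19 genes for modification, folding and export, 5 were UP and none DOWN, and the median log2 fold change was 0.27. *Plod2*, the lysyl hydroxylase of the collagen telopeptides, measured 14.2 and 9.64 CPM in the controls and 23.9 and 48.4 CPM in the knockdown samples (1.62, SE 0.38). *Serpinh1*, the collagen chaperone HSP47, measured 29.6 and 23.6 CPM against 34.6 and 66.1 CPM (0.92, SE 0.31). *Creb3l1*, a transcription factor of collagen-secreting cells, and *P4ha3*, a subunit of prolyl 4-hydroxylase, were low, with log2 fold changes of 2.09 and 1.497. Genes of high level in this list were not called, *Mia3* for collagen export at -0.13 and *P4ha1* for the main prolyl 4-hydroxylase at 0.19. Of the 4 UP genes named, *Plod2* was UP with any sample left out, *Creb3l1* was not called without control sample 2, *P4ha3* without control sample 1, and *Serpinh1* without either control or without knockdown sample 2, where its values over all alternatives ran from 0.39 to 1.32.

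Procollagen processing and cross-linking had 6 UP genes of 14 and none DOWN, with a median of 0.57. The lysyl oxidases, which form the covalent bonds between collagen molecules, included 3 of these. *Lox* measured 0.92 and 1.00 CPM in the controls and 2.63 and 2.702 CPM in the knockdown samples, with each group tight (1.46, SE 0.36). *Loxl2*, which cross-links type IV collagen, measured 1.204 and 1.48 against 3.32 and 4.68 CPM (1.55, SE 0.36). Both were UP with any sample left out. *Loxl4* (1.00, SE 0.36), which DESeq2 did not call either, and *Adamts14*, which removes the amino-terminal propeptide (1.56, SE 0.53), were not called without control sample 1, control sample 2 or knockdown sample 2, their values over the alternatives being 0.78 to 1.19 and 0.74 to 2.09. *Bmp1*, which removes the carboxy-terminal propeptide, overlapped, with 32.5 and 41.6 against 32.5 and 35.6 CPM (-0.13, SE 0.16), and *Tgm2*, a transglutaminase, was not called (0.24, SE 0.15).

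The TGF-beta list, ligands, receptors and responsive genes of the pathway that induces collagen in fibroblasts, had 4 UP genes of 11 and none DOWN, with a median of 0.22. The ligand *Tgfb3* measured 23.9 and 19.4 CPM in the controls and 33.7 and 36.2 CPM in the knockdown samples (0.70, SE 0.15), and *Tgfb2* 10.8 and 9.55 against 16.6 and 17.2 CPM (0.73, SE 0.17). In both ligands the groups were tight and did not overlap. *Tgfb3* was UP with any sample left out and *Tgfb2* was not called without control sample 2. *Ltbp2*, which binds fibrillin microfibrils, measured 2.34 and 1.31 against 7.67 and 3.38 CPM (1.66, SE 0.51), and was not called without control sample 2 or knockdown sample 1. *Tgfbr2*, the receptor that binds the ligands, measured 35.3 and 40.8 against 56.3 and 56.5 CPM (0.57, SE 0.13), and was UP with any sample left out. *Tgfbr1*, the signalling receptor, overlapped (-0.07, SE 0.29), as did *Ltbp1* (0.79, SE 0.36).

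**Figure D4:**
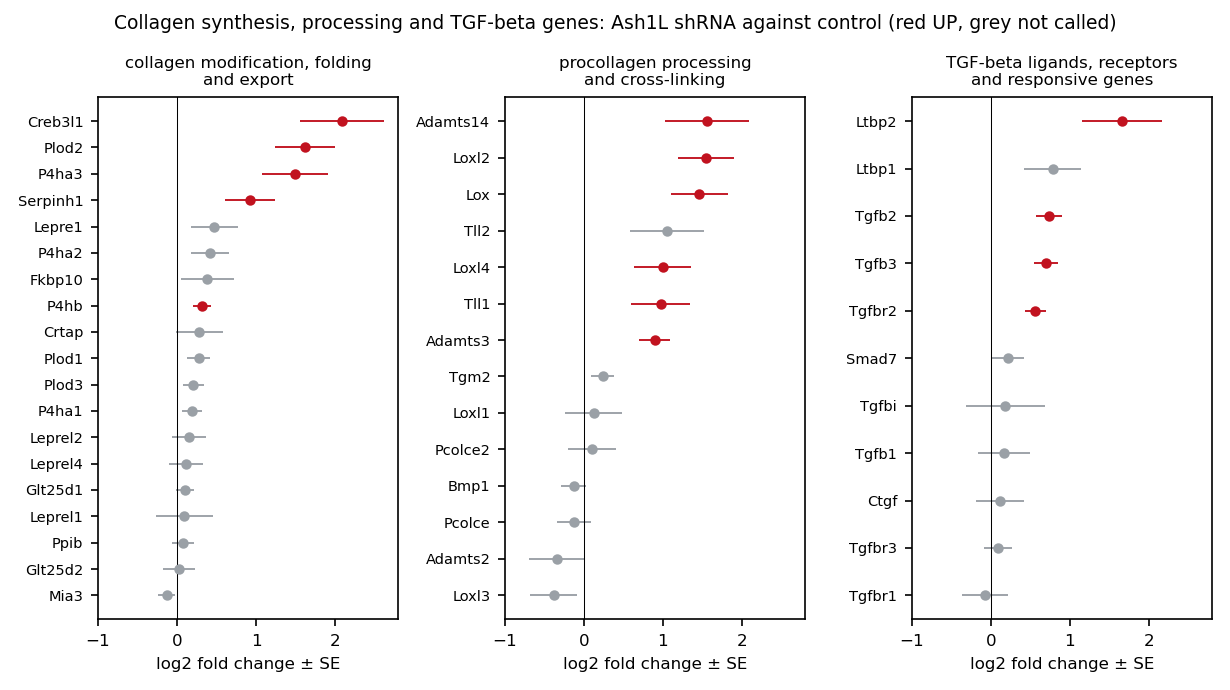
Log2 fold change, *Ash1L* shRNA against control, with its SE (horizontal axis) for the tested genes of the modification, processing and TGF-beta lists (rows; older symbols as in the count tables). Red points are UP and grey points not called; 5 of 19, 6 of 14 and 4 of 11 genes are UP, and none is DOWN.

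The other lists held fewer calls. Of 15 fibril-binding proteoglycans and glycoproteins, 2 were UP, *Tnxb* for tenascin-X (0.86, SE 0.31) and *Lum* for lumican (0.72, SE 0.29), and 1 was DOWN, *Sparcl1*, an astrocyte glycoprotein with 2421 and 2021 CPM in the controls and 1835 and 1360 CPM in the knockdown samples (-0.47, SE 0.18). *Sparc* (0.35, SE 0.15) and *Fn1* for fibronectin (0.43, SE 0.37) were not called. *Tnxb* was not called without control sample 1, *Lum* without either control or knockdown sample 1 and under DESeq2 and both replicate blocks, and *Sparcl1* without either control or knockdown sample 2. Of 14 basement membrane partners of type IV collagen, only *Nid1* for nidogen was UP, with 10.8 and 17.0 against 18.9 and 25.5 CPM (0.66, SE 0.26), and not without control sample 1 or knockdown sample 2 or with the crossed replicate block. *Agrn* for agrin was below both controls (-0.31, SE 0.14) and *Pxdn*, for the peroxidase that cross-links type IV collagen, measured 68.3 and 38.1 CPM in the controls and 50.6 and 141 CPM (0.86, SE 0.57), neither of them called.

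Of 10 collagen receptor genes tested, *Itga11* for an integrin chain of fibroblasts was UP (1.19, SE 0.48), and was not called without either control, without knockdown sample 2 or with the crossed replicate block, while *Itgb1* (0.13, SE 0.12) and *Ddr1* (-0.23, SE 0.16) were not called. Of 12 collagenases, gelatinases and inhibitors tested, 2 were UP. *Mmp3*, for stromelysin-1, had 2 and 1 counts in the controls and 75 and 41 in the knockdown samples. *Mmp12* had 3 and 2 counts against 12 and 13, and was not called without control sample 2 or knockdown sample 2, nor by DESeq2 or with the replicate block. Both genes passed the filter on low counts only through the knockdown samples, where they are high, so their calls are no support. No fold change is given for these genes, since their control counts are at the floor. The inhibitors *Timp2* (0.20, SE 0.13) and *Timp3* (0.03, SE 0.15) were not called.

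Markers of the cells that make collagen in brain were compared with the collagen genes. Fibroblast markers summed to 191 and 207 CPM in the controls and 220 and 197 CPM in the knockdown samples, with 2 of 12 UP, 1 DOWN and a median of -0.20 on the log2 scale. Mural markers summed to 302 and 319 against 321 and 303 CPM (1 of 12 UP and 1 DOWN, median 0.03). Endothelial markers summed to 323 and 286 against 328 and 285 CPM (none of 10 called, median 0.04). No marker of these 3 lists was at 0 in any sample, and 4 of the fibroblast markers, *Dcn*, *Lum*, *Ogn* and *Fmod*, are also in the list of fibril-binding proteins. *Pdgfra*, 1 of the 2 UP fibroblast markers, is also in the oligodendrocyte-lineage list. It made up 88.5 and 82.3 CPM of the fibroblast sums in the controls and 99.5 and 107 CPM in the knockdown samples. The summed levels of these 3 lists overlapped between the groups. Their part in the collagen values was not tested.

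Of the other cell types, 4 marker lists lay lower in both knockdown samples than in both controls. Astrocyte markers summed to 5553 and 5849 CPM in the controls and 4443 and 3292 CPM in the knockdown samples (8 of 10 DOWN), and neuronal markers to 6826 and 7065 against 6085 and 4850 CPM (4 of 12 DOWN). Lymphocyte markers summed to 155 CPM in each control and to 27.0 and 3.62 CPM in the knockdown samples (6 of 8 DOWN). All 8 were lower in both knockdown samples than in both controls. Infiltrating and border macrophage markers summed to 40.7 and 61.3 against 29.4 and 26.8 CPM (3 of 10 DOWN, *Ly6c2*, *Ccr2* and *Mrc1*). *Ly6c2* measured 10.2 and 20.6 CPM in the controls and 1.57 and 1.25 CPM in the knockdown samples. *Ccr2* measured 5.74 and 9.98 against 3.18 and 1.79 CPM. The remaining 7 markers of this list, among them *Cd163*, *Lyve1*, *Pf4* and *F13a1*, overlapped between the groups. The other 3 lists overlapped between the groups. Microglial markers summed to 669 and 677 against 866 and 365 CPM (1 of 10 UP), oligodendrocyte-lineage markers to 2921 and 3253 against 3117 and 2647 CPM (1 of 10 UP, again *Pdgfra*, and 1 DOWN), and choroid plexus and ependymal markers to 14.2 and 13.9 against 8.84 and 25.8 CPM (1 of 6 tested UP). Over all genes tested, 8.61% were UP and 8.28% DOWN. The part of these cell types in the collagen values was not tested.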

How the data were processed

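Ribosomal RNA was removed from total RNA of fluorescent PFC punches, and stranded libraries were sequenced. The values are raw counts per gene symbol that the authors deposited, without normalization. The paper and the file headers name STAR (mm10) with featureCounts, whereas the labels describe Cutadapt and TopHat2. Strand and multiple-mapping settings are not given in the sources used here, so reads of overlapping exons, such as the 234 bases shared by *Col9a3* and *Tcfl5*, may be counted for the other gene. Total counts were 14251190 and 35764874 in the controls and 27479339 and 20106708 in the *Ash1L* shRNA samples, so counting error was largest in control sample 1, and 4 collagen genes had under 10 counts in a sample. Chi-square per degree of freedom between replicates was 14.8 and 42.3, so no sample repeats another.

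Counts were filtered with filterByExpr, TMM-scaled and tested with edgeR 4.0.16 (R 4.3.3, glmQLFit with robust estimation, glmQLFTest), with Benjamini-Hochberg adjustment over 16232 genes. CPM are TMM-scaled, and 0.1 CPM was added before logs of single samples. Exonic lengths and positions came from GENCODE vM21. Current gene names were matched to older symbols in the tables. *Col21a1* was not analysed here. Alternatives were DESeq2 1.42.0, the likelihood ratio test, RLE and library-size scaling, no filter, at least 10 counts in every sample, a 1.5-fold limit, a replicate block and each sample left out. Same-numbered samples deviated with a correlation of -0.11, so the number was not taken to pair them, and the crossed block was added after seeing the data. On simulated counts of this comparison (16095 genes), the call rule recovered 175 of 200 changed genes, 50 of 50 at 8-fold and 28 of 50 at 1.5-fold, and called 4.72% of unchanged genes. The simulation gave all genes and both groups the same dispersion, and took changed genes only among those with enough expected counts. The real replicates spread differently by group, so these rates check the code and are not error rates of these data.

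The collagen genes and the lists were chosen with earlier results of these data known. Named are all genes of types I, III, V, IV and VI, other collagen genes called, the 6 others of highest mean level, and per list at most 4 called genes by size of change and 2 not called by level. *Col2a1*, *Col15a1*, *Col24a1* and *Col28a1* were named after their values were seen, as were the marker genes whose levels are given. A pathway gene is not reported here and was left out of its list.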

Additional observations from a re-analysis of the deposited data

How the results depend on the processing

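The direction of all 13 called collagen genes held in each of the 13 alternatives in which they could be tested, and *Col5a3*, *Col6a4*, *Col18a1* and *Col22a1* kept their call in each. UP and DOWN collagen genes ran from 7 to 15 and from 1 to 3 with a sample left out, and no collagen gene was DOWN at a 1.5-fold limit. Fibrillar UP genes numbered 4 by DESeq2 and 1 without the filter on low counts, and 1 to 3 with a sample left out, type IV genes 0 to 2, and type VI genes 1 to 3, or 1 with at least 10 counts in every sample, where *Col6a5* was not tested. Over all genes, UP and DOWN numbered 765 and 491 at 1.5-fold, and 423 to 2368 and 306 to 2718 with a sample left out. Genes past an adjusted p of 0.05 numbered 1, against 421 by DESeq2, 479 by the likelihood ratio test, 34 without the filter and 2502 without *Ash1L* shRNA sample 1. Pathway genes UP ran from 11 to 36 and DOWN from 0 to 10 with a sample left out. Pathway genes DOWN numbered 2 without the filter and 0 at 1.5-fold. Of the 19 pathway genes named as called, 13 lost the call with some sample left out and 7 under another alternative. *Ash1l* ran from -0.97 to -0.31 with a sample left out.

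With the replicate block, 13 collagen genes were UP and 2 DOWN, *Col5a2* and *Col6a3* being added and none of the main calls lost, and 2 pathway genes were DOWN. With the crossed block, 12 collagen genes were UP and 3 DOWN, *Col27a1* being lost, and 4 pathway genes were DOWN. Fewer than 3 pairs exist, and the block was not taken as a pairing.

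Among the genes named, reversals came only with a sample left out, and of genes that were not called. Some collagen genes that are not named also reversed with a sample left out and are not listed. The log2 fold change ran from -0.12 to 0.69 for *Col1a1*, -0.046 to 0.74 for *Col1a2*, -0.018 to 1.199 for *Col5a1*, -0.13 to 1.97 for *Col4a3*, -0.030 to 0.1998 for *Col4a5*, -0.14 to 0.25 for *Col6a1*, -0.27 to 0.26 for *Col6a6*, -0.54 to 0.12 for *Col25a1*, -0.038 to 0.31 for *Col9a3*, -0.51 to 1.08 for *Col11a1*, -0.28 to 0.060 for *Bmp1*, -0.055 to 1.42 for *Pxdn*, -0.17 to 0.2009 for *Timp3* and -0.62 to 0.32 for *Tgfbr1*. It turned negative without control sample 1 for *Col1a1* (-0.12), *Col1a2*, *Col4a3*, *Col4a5* and *Col6a6* (-0.10), without *Ash1L* shRNA sample 1 for *Col6a6*, and without *Ash1L* shRNA sample 2 for *Col1a1* (-0.07), *Col5a1*, *Col6a1*, *Col9a3*, *Col11a1*, *Pxdn* and *Timp3*. It turned positive without control sample 2 for *Col25a1* and *Bmp1* and without *Ash1L* shRNA sample 2 for *Tgfbr1*. The cause was not tested. *Col2a1*, *Col4a3*, *Col4a4* and *Col6a5* had under 10 counts in a sample, so their values are the least precise by counting error.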
